A study of Mus musculus with 2 samples.

Results

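Dpp4 Pi16 fibroblast progenitors are fibroblasts of fat named for Dpp4, a cell-surface dipeptidyl peptidase, and Pi16, a surface peptidase inhibitor. Here a cell had to carry most, not all, of these 2 genes and Cd55, Sema3c, Smpd3 and Efhd1. They were picked in silico as cells with at least 3 of the 5 fibroblast genes Pdgfra, Lum, Dpt, Clec3b and Mfap5 on at 100 CPM (a gene's reads, scaled to the same total in every cell), a summed level under 500 CPM of the macrophage genes C1qa and C1qb, the endothelial gene Cdh5 and the mesothelial gene Upk3b, at least 4 of the 6 progenitor genes on, and under 2 of the inflammatory genes Ptx3, Has1 and Tnfaip6 at 500 CPM. The choice left 531 cells of 10521 with at most 25% mitochondrial reads, or 5.05% (95% exact binomial interval 4.64 to 5.48%). These 531 were 17.4% (16.1 to 18.8%) of the 3053 cells that passed the fibroblast and other-lineage conditions, called fibroblasts from here on, and the remaining 2522 are called other fibroblasts.

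The cells came from the stromal vascular fraction, the non-adipocyte cells freed by digestion, of epididymal fat of wild-type male C57BL/6J mice. The diets were SD, a standard one, over 16 weeks and HFD, a high-fat one, over 8 and over 16 weeks, and the hashtag-labelled suspensions were pooled into 1 BD Rhapsody run amplified by TAS-Seq. The 9 hashtag populations are called by the authors' hashtag names, and which diet or animals stood behind each hashtag is not given in the sources used here, so no diet was compared. With 1 pooled library nothing was tested: differences are given as levels and ratios, intervals cover counting error only, and reads of 1 molecule are not independent, which makes these intervals too narrow.

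In mouse fat, Dpp4-positive fibroblasts line the interstitium between lobules and are known to give rise to committed preadipocytes, marked by Icam1 and Fabp4, and to Cd142-positive (F3) regulatory cells. They lie upstream in the adipocyte lineage and hold off differentiation under TGF-beta and Wnt signals. The same kind of fibroblast, marked by Pi16, occurs in many organs, where it surrounds large vessels and forms collagen-rich sheets.

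The label was checked against the markers outside the rule. Of 24 further genes reported for such interstitial progenitors, 23 reached 20 CPM in the progenitors or in the other fibroblasts, 15 were at least 2-fold higher in progenitors and 0 were 2-fold lower. Over all 6986 genes compared outside the rule, 2.0% were 2-fold higher and 2.95% were 2-fold lower. The list counts below stand against these shares, at which a short list would often hold no higher gene. The rule also keeps cells with 2 or more of Ptx3, Has1 and Tnfaip6 at 500 CPM out of the progenitors. All 780 such fibroblasts stay among the other fibroblasts. Since the cells were picked by these conditions and by 6 progenitor genes, measured in the same cells, all counts of this comparison describe the population. They support nothing beyond that. Dcn, a matrix proteoglycan that all fibroblasts make, was on in 99.8% of progenitors and 98.5% of other fibroblasts.

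Upstream sequences are shown for 3 genes of the rule, because these genes are on together in the chosen cells. The windows are the 250 bases before the RefSeq start (GRCm38.p6), read 5′ to 3′ on the gene's strand. Capitals mark matches on either strand to the GC box GGGCGG, the AP-1 motif TGANTCA, the TEAD motif CATTCC, the TATA box TATAAA, the CCAAT box and the KLF motif CACCC; in Cd55 a GC box and a KLF motif overlap.
Dpp4 (chr2:62412232-62412481, minus strand): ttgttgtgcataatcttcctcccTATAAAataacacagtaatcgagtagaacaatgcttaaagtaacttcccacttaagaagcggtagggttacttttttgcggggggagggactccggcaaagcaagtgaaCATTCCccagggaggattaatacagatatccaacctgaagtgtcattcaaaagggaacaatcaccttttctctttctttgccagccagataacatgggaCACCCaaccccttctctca
Cd55 (chr1:130462745-130462994, minus strand): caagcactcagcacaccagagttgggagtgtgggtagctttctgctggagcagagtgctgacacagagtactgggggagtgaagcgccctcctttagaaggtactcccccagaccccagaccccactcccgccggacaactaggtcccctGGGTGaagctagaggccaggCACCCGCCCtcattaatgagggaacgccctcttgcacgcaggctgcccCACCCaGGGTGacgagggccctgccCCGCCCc
Efhd1 (chr1:87264103-87264352, plus strand): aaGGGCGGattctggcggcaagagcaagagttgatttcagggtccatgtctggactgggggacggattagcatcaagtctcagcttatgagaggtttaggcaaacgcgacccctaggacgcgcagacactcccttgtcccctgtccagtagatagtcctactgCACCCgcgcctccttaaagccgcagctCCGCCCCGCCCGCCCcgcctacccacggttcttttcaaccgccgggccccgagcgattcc

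The 3 windows differ in base composition and in the letters found. The G and C share was 43.6% for Dpp4, 64% for Cd55 and 60.8% for Efhd1, against a median of 52% over 27025 genes. Dpp4 held 1 TEAD motif, 1 TATA box and 1 KLF motif, Cd55 held 2 GC boxes and 4 KLF motifs, and Efhd1 held 4 GC boxes and 1 KLF motif. Of all 27025 windows of this length, 32.9% hold the GC box, 6.87% the AP-1, 12.6% the TEAD motif, 13% the TATA box, 34.5% the CCAAT box and 51.3% the KLF motif, which is the motif matched in all 3 windows shown.

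The 6 genes that chose the cells are described first, with no reading of their difference. Dpp4 (chr2:62330073-62412231, GRCm38), which cleaves dipeptides from chemokines and incretins, ranged over the hashtag populations from 355 to 539 CPM (median 466) in progenitors and from 68.1 to 207 CPM (median 138) in other fibroblasts. Pi16 (chr17:29317680-29330593) ranged from 888 to 2193 CPM (median 1151) in progenitors and from 425 to 872 CPM (median 519) in other fibroblasts. Dpp4 was on in 82.5% of progenitors and in 22.5% of other fibroblasts. Pi16 was on in 84.0% of progenitors and in 41.4% of other fibroblasts, so Pi16 was widely carried outside the progenitors too.

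Cd55 (chr1:130439027-130462744), a surface protein that speeds the decay of complement convertases, ranged from 1619 to 2430.0 CPM (median 1859) in progenitors and from 339.6 to 1043 CPM (median 823) in other fibroblasts. It was the rule gene carried by the largest share of progenitors, 98.3%, against 48.2% of other fibroblasts. Its close copy Cd55b summed to 65.1 CPM in progenitors and 23.7 CPM in other fibroblasts, and how the authors' counting split reads between the copies is not given in the sources used here.

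Sema3c (chr5:17574281-17730268), a secreted guidance factor, ranged from 744 to 993 CPM (median 808) in progenitors and from 117 to 299.8 CPM (median 270.1) in other fibroblasts. Smpd3 (chr8:106252548-106337988), the neutral sphingomyelinase that makes ceramide, ranged from 479 to 1184 CPM (median 777) in progenitors and from 69.9 to 382 CPM (median 169.7) in other fibroblasts. Efhd1 (chr1:87264363-87310839), a calcium-binding mitochondrial protein, ranged from 206 to 321 CPM (median 270.3) in progenitors and from 28.0 to 115 CPM (median 78.6) in other fibroblasts. Sema3c was on in 92.5% of progenitors, Smpd3 in 74.2% and Efhd1 in 67.0%. For each of the 6 genes the lowest progenitor population stood above the highest other population, an order that the choice of the cells favours.

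**Figure D1:**
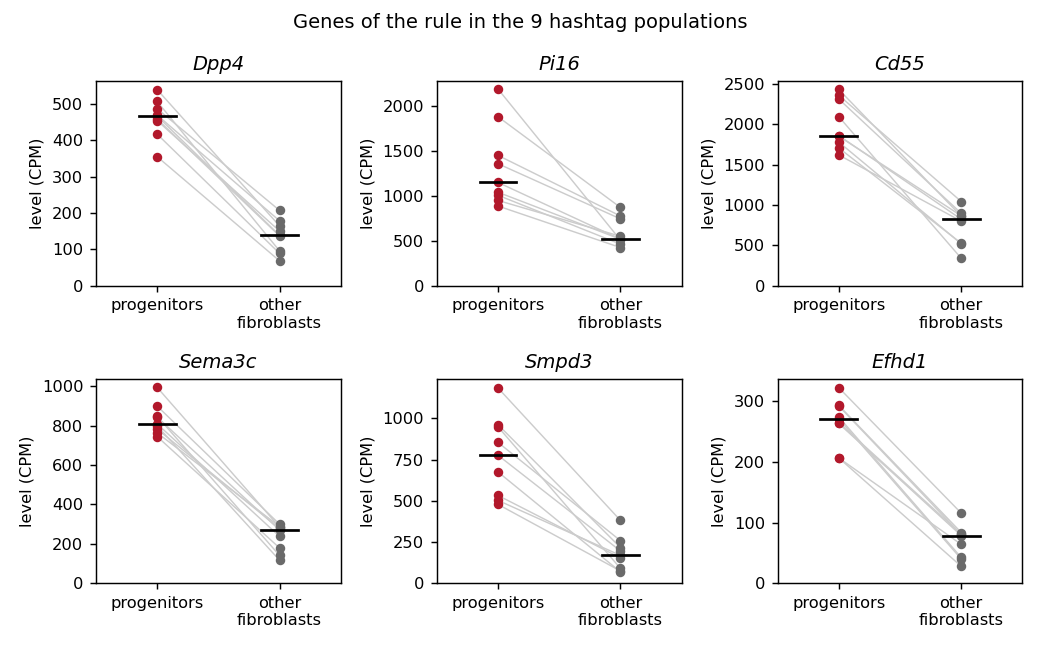
Level (CPM of summed reads, linear axis from 0) of each of the 6 rule genes in the progenitors (left) and the other fibroblasts (right). Each point is 1 of 9 hashtag populations, grey lines join the same population, and black bars are medians. The groups do not overlap for any of the 6 genes, which the choice of the cells favours. Pi16 comes closest, with 888 CPM in the lowest progenitor population and 872 CPM in the highest other population.

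Cells on either side of the threshold were compared next. These levels are of summed reads, among fibroblasts that were not inflammatory. The 181 cells with exactly 4 genes on held 270 CPM of Dpp4, 1107 CPM of Cd55 and 98.2 CPM of Efhd1. The 231 cells with exactly 3 on held 137, 706 and 22.8 CPM of the same genes. Pi16 was at 807 CPM in cells with 4 on and 859 CPM in cells with 3 on, so of the genes given it alone was not higher just inside the threshold. The 531 progenitors split evenly into 181 with 4, 177 with 5 and 173 with all 6 genes on.

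Outside the fibroblasts, Dpp4 was low in macrophages, endothelial cells and mural cells, each picked by its own marker genes. It was at 3.52 CPM in 2927 macrophages, 6.41 CPM in 918 endothelial cells and 7.19 CPM in 182 mural cells. The other rule genes in these cells, and all rule genes in T cells, are not given here. Mesothelial cells, the surface lining of the fat pad, were an exception: 212 of them held 328 CPM of Dpp4, 244 CPM of Sema3c and 139.7 CPM of Smpd3, with 14.1 CPM of Pi16 and 2.57 CPM of Efhd1. The 8 mesothelial markers summed to 30.0 CPM in progenitors and 55.1 CPM in other fibroblasts. Among them Nkain4 was on in 9.42% of progenitors and 7.57% of other fibroblasts. In the progenitors the markers Krt19 and Gpm6a were at 0 CPM and Msln was at 0.721 CPM. Upk3b, also at 0 CPM, is among the genes that the rule required to be low.

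The progenitors also differed from the other fibroblasts in measures that touch every level below. Their median depth was 72739 reads and 4296 genes per cell, against 43250.5 reads and 3073.5 genes in other fibroblasts, and their median mitochondrial share was 3.03% against 3.96%. At 5000 reads drawn per cell, 123 of the 140 higher and 182 of the 206 lower genes were still past 2-fold, and in cells of 20000 to 80000 reads 105 and 159 were. Other genes came in: the totals at 5000 reads were 207 higher and 231 lower. The mean of per-cell CPM, which weights cells equally, gave 193 higher and 218 lower. Of markers of other cells, the 8 macrophage markers summed to 391 CPM in progenitors and 506 CPM in other fibroblasts, of which Lyz2 alone gave 237 and 339.6 CPM, and the 8 mural markers summed to 24.9 and 113 CPM. Over the populations the macrophage sum ran from 197 to 1057 CPM (median 278) in progenitors and from 232 to 1715 CPM (median 327) in other fibroblasts, and the mural sum from 5.98 to 46.8 CPM (median 23.1) in progenitors and from 28.6 to 392 CPM (median 80.5) in other fibroblasts. Endothelial, T cell, B cell, adipocyte and Schwann cell markers each summed to 23.7 CPM or less in progenitors, and Scrublet marked 8 of the 531 progenitors (1.51%) as doublets, against 2.21% of all kept cells.

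Of the interstitial progenitor genes compared, 15 of 23 were 2-fold higher, with ratios up to 4.67 for the Wnt pathway regulator Dact2 (44.1 CPM in progenitors, 9.45 CPM in other fibroblasts), and 8 were within 2-fold. Abundant genes are given in full. Fbn1, of the elastic-fibre list, the fibrillin that forms microfibrils, ranged from 4669 to 7564 CPM (median 5106) over the populations of progenitors and from 1329 to 2872 CPM (median 2074) in other fibroblasts, with no overlap and a ratio of sums of 2.80. Fn1, fibronectin, ranged from 7926 to 12729.9 CPM (median 10741) in progenitors and from 3411 to 6413 CPM (median 4357) in other fibroblasts, 2.32-fold higher in sum. Anxa3, a calcium-dependent membrane-binding annexin, was 2.49-fold higher, with 811 CPM (95% exact Poisson interval 803 to 820.1) in progenitors and 326 CPM (323 to 329) in other fibroblasts. Every one of the 9 populations had the higher Anxa3 level in its progenitors.

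Among the other calls of the interstitial progenitor list, Limch1, an actomyosin regulator, was at 168 CPM in progenitors and 45.9 CPM in other fibroblasts, a ratio of 3.67. Emilin2, an elastic-fibre interface glycoprotein, was at 548 and 226 CPM, and Prss23, a serine protease, at 1663 and 745 CPM in these groups. Each of these 3 was higher in progenitors of all 9 populations. The surface antigens Cd248 (1251 CPM in progenitors, 604 CPM in other fibroblasts) and Thy1 (538 and 256 CPM) were 2-fold higher too, Thy1 in 8 of 9 populations. Cd34 (1802 and 1003 CPM), Ly6a (Sca-1, 2272 and 1948 CPM) and the alarmin Il33 (62.2 and 72.2 CPM) stayed within 2-fold. With gaps filled Cd248, Uchl1 and Igfbp5 of this list were under 2-fold higher.

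**Figure D2:**
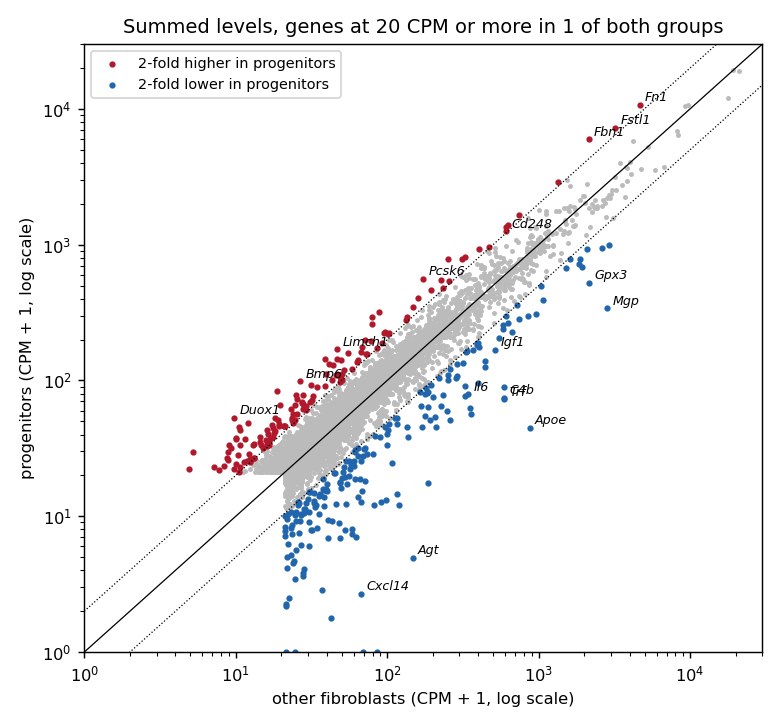
Summed level of each compared gene outside the rule in progenitors (vertical, CPM plus 1, log scale) against other fibroblasts (horizontal, same scale). Red points are 2-fold higher in progenitors (140 genes), blue points 2-fold lower (206 genes), grey points within 2-fold; the solid line marks equal levels and dotted lines 2-fold. Fn1, Fstl1 and Fbn1 are the most abundant named genes above the upper dotted line, and Mgp, Gpx3 and Apoe lie far below the lower one.

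Genes of the later lineage stages were lower. Of 17 compared genes of committed preadipocytes, 11 were 2-fold lower in progenitors and 0 higher, with a median log2 ratio of -1.17, and of 11 genes of Cd142-positive regulators 9 were lower and 0 higher (median -1.55). The median over all genes compared was 0.10. Apoe, the lipid-carrying apolipoprotein, ranged from 4.60 to 147 CPM (median 29.0) in progenitors and from 444 to 1781 CPM (median 610.2) in other fibroblasts. Agt, angiotensinogen, was on in 1.32% of progenitors and 23.3% of other fibroblasts, with 3.97 CPM against 146 CPM. The smallest Apoe count above 0 in the table is 23 reads; with each 0 raised to 1 read less, Apoe was still 3.81-fold lower in progenitors rather than 19.8-fold.

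Adipogenic genes stood lower as well, though less far. Fabp4, a fatty acid carrier and adipocyte marker, was at 99.3 CPM in progenitors and 249 CPM in other fibroblasts, and lower in 8 of 9 populations. Lpl, lipoprotein lipase, was at 668 and 1509 CPM, and the leukocyte adhesion receptors Icam1 (46.5 and 102 CPM) and Vcam1 (47.1 and 115 CPM) were lower in all 9. Cebpb, an early adipogenic transcription factor, was at 87.0 CPM in progenitors and 180.1 CPM in other fibroblasts, but under 2-fold lower in cells of 20000 to 80000 reads (log2 ratio -0.70). The lipid droplet gene Plin2 stayed within 2-fold, at 110.1 and 155 CPM.

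Of the regulator genes, Mgp, the matrix Gla protein that blocks calcification and binds BMPs, was the furthest apart. It ranged from 186 to 624 CPM (median 314) in progenitors and from 1755 to 5123 CPM (median 2449) in other fibroblasts, 8.38-fold lower in sum. F3, tissue factor or Cd142 itself, was at 62.7 CPM in progenitors and 185 CPM in other fibroblasts. Inmt, an amine N-methyltransferase (87.9 and 591 CPM), and Igf1, the growth factor (168 and 515 CPM), were lower in all 9 populations.

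**Figure D3:**
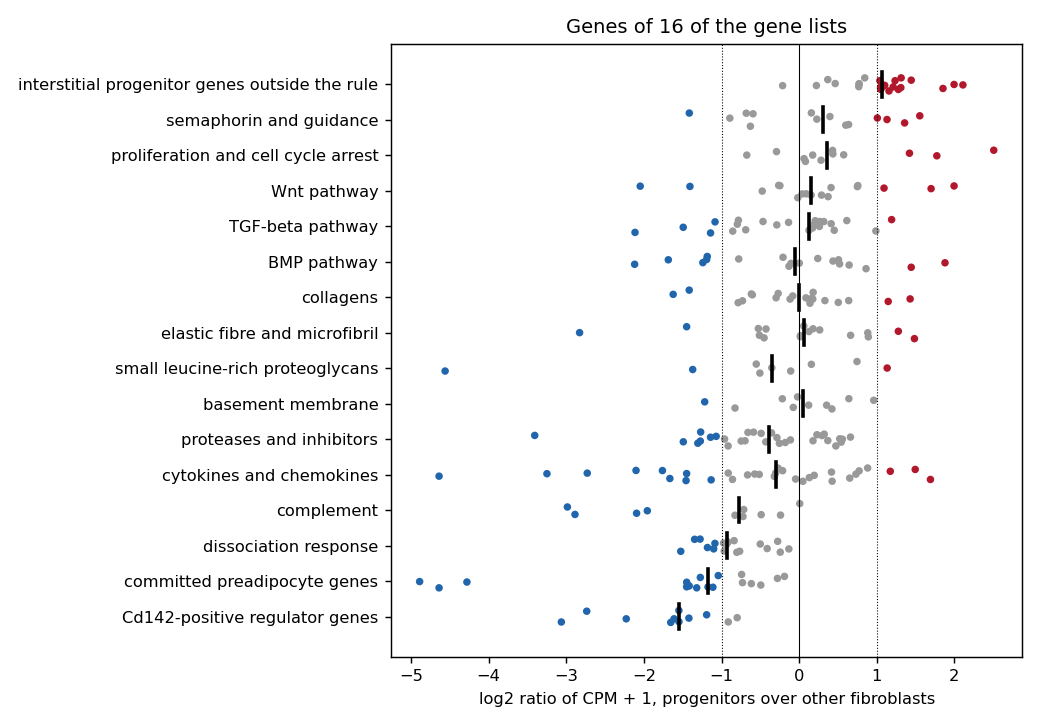
Log2 ratio of CPM plus 1, progenitors over other fibroblasts, for each compared gene (point) of 16 gene lists, with the median of each list as a black bar. Red points are 2-fold higher and blue points 2-fold lower in progenitors, and dotted lines mark 2-fold. The interstitial progenitor list has its median at 1.07, and the preadipocyte and Cd142-positive regulator lists at -1.17 and -1.55.

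Among secreted signals, a few Wnt ligands were higher in the progenitors. Of 17 Wnt pathway genes compared, 3 were higher and 2 lower. Wnt10b, a ligand that blocks adipogenesis, was at 36.2 CPM in progenitors and 10.5 CPM in other fibroblasts, and Wnt2 at 41.8 and 9.74 CPM, higher in all 9 and in 7 of 9 populations. Sfrp1, a secreted Wnt antagonist, was lower, at 95.1 CPM in progenitors and 396 CPM in other fibroblasts. The antagonist Sfrp2 was at 156 and 72.6 CPM, a difference that shrank to a ratio of 1.22 when gaps in the low counts were filled. The receptors Fzd1 (52.6 and 42.9 CPM) and Fzd4 (70.8 and 84.2 CPM) and the effector Ctnnb1 (183 and 165 CPM) were within 2-fold.

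BMP pathway genes differed in both directions. Of 18 BMP pathway genes, 2 were higher, both ligands: Bmp6 at 97.4 CPM in progenitors and 25.7 CPM in other fibroblasts, and Bmp7 at 50.4 and 17.9 CPM, each higher in all 9 populations. The 5 lower ones were the ligand Gdf10 (80.9 and 186 CPM), the extracellular modulators Chrdl1 (11.2 and 52.2 CPM) and Bmper (53.9 and 176 CPM), and the BMP target genes Id1 (14.9 and 36.5 CPM) and Id2 (80.0 and 183 CPM). Id1 and Id2 were under 2-fold lower in cells of 20000 to 80000 reads, at log2 ratios of -0.93 and -0.96.

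Of 23 TGF-beta pathway genes, 1 was higher and 4 lower. Fstl1, a secreted follistatin-like protein, ranged from 5408 to 9165 CPM (median 6454) in progenitors and from 2384 to 4537 CPM (median 3000.1) in other fibroblasts. Tgfbr2, the type II receptor, was just inside 2-fold, at 899.9 CPM in progenitors and 453 CPM in other fibroblasts. Tgfbi, a TGF-beta-induced matrix protein (23.7 and 106 CPM), Ltbp2 (7.26 and 22.3 CPM) and the activin antagonist Fst were among the lower ones. The ligands Tgfb1, Tgfb2 and Tgfb3 and the Smads of the list that were compared stayed within 2-fold.

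Growth factors outside these pathways split 4 higher to 6 lower among 27 compared. Pdgfc, a PDGF receptor alpha ligand, was at 36.5 CPM in progenitors and 9.07 CPM in other fibroblasts. Fgf2 (156 and 70.9 CPM) was higher, and Fgf7 (11.4 and 45.0 CPM) and Fgf10 (5.26 and 21.0 CPM), both ligands that act on epithelia, were lower. Gas6, a ligand of the TAM receptors, was at 44.6 CPM in progenitors and 209 CPM in other fibroblasts, while its receptor Axl was at 705 and 414 CPM, within 2-fold. Of 14 guidance genes, Ntn4 (175 and 67.4 CPM), Sema3e (90.8 and 30.3 CPM), Robo1 (37.3 and 16.5 CPM) and Sema3d (96.6 and 47.6 CPM) were higher, and the semaphorin receptor Plxnd1 (9.64 and 27.4 CPM) was lower.

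Matrix genes showed no common direction. Of 20 collagen genes, 2 were higher, 2 lower and 16 within 2-fold (median log2 ratio 0.00). Col3a1 was at 10535 CPM in progenitors and 9296 CPM in other fibroblasts, Col1a1 at 1883 and 2314 CPM, and Col1a2 at 3635 and 3849 CPM. The fibril-associated collagens Col14a1 (1389.7 and 627 CPM) and Col12a1 (60.9 and 22.0 CPM) were higher. Col15a1, at the border of basement membranes (205 and 549 CPM), and Col6a5, a collagen VI chain, were lower.

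Elastic-fibre genes were 2 higher (Fbn1 and Emilin2) and 2 lower of 17, the lower ones being the fibulins Fbln7 (11.8 CPM in progenitors, 89.7 CPM in other fibroblasts) and Fbln1 (103 and 283 CPM). Among 9 small leucine-rich proteoglycans, Aspn was higher (1336 and 608 CPM; within 2-fold with gaps filled), and Podn (63.7 and 166 CPM) and Fmod were lower. Fmod, a regulator of collagen fibrils, was nearly unseen in progenitors (0.793 CPM against 41.3 CPM in other fibroblasts), but its smallest count above 0 is 7 reads and with gaps filled it was within 2-fold. Among 10 basement membrane genes 1 was lower, Nid2 (37.3 and 88.1 CPM), while Nid1 stood at 2977 and 1529 CPM, just inside 2-fold.

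None of 30 proteases and inhibitors was 2-fold higher and 7 were lower. Mmp3, stromelysin, was at 16.6 CPM in progenitors, on in 1.13% of them, and at 185 CPM in other fibroblasts, on in 9.75%. Cst3, the cysteine protease inhibitor cystatin C, was at 686 and 1932 CPM. Pcolce, which speeds procollagen processing, was at 238 CPM in progenitors and 577 CPM in other fibroblasts, while its relative Pcolce2 was at 829 and 524 CPM. Timp2 (5792 and 4173 CPM) and Mmp2 (531 and 799 CPM) stayed within 2-fold.

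Of 10 complement genes 4 were lower: C4b, a central component of the classical pathway (73.6 CPM in progenitors, 589.8 CPM in other fibroblasts), C2 (12.2 and 96.9 CPM), C7 of the membrane attack complex (75.2 and 325 CPM) and Cfb (52.6 and 207 CPM). C4b varied in progenitors from 19.8 to 294 CPM over the populations (median 69.1), and in other fibroblasts from 269 to 1334 CPM (median 368), so the groups overlapped only slightly. C3 stayed within 2-fold, at 3555 and 5830.5 CPM.

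Of 31 cytokine and chemokine genes, 9 were lower and 3 higher. Il6 was at 78.3 CPM in progenitors and 339 CPM in other fibroblasts, Cxcl12, which retains leukocytes and progenitors through Cxcr4, at 139 and 442 CPM, and Cxcl14 at 1.68 and 65.8 CPM. The 3 higher genes are known to bind ligands away: the decoy receptor Tnfrsf11b, osteoprotegerin (131 and 40.0 CPM), and the scavenging chemokine receptors Ackr2 (77.2 and 26.7 CPM) and Ackr4 (70.5 and 30.7 CPM). The scavenger Ackr3 was at 883 CPM in progenitors and 517 CPM in other fibroblasts, within 2-fold. Chemokines for monocytes and eosinophils, Ccl2 (642 and 561 CPM) and Ccl11 (1006 and 973 CPM), were within 2-fold. Inflammatory fibroblasts, which the rule kept out of the progenitors, are among the other fibroblasts. In fibroblasts that were not inflammatory, Il6 stood at 235, 223, 129 and 166 CPM with 0, 1, 2 and 3 progenitor genes on. Cxcl10 turned round, to a log2 ratio of 0.25, when inflammatory fibroblasts were left out of the other fibroblasts. With gaps filled Cxcl14 was 2.42-fold lower rather than 39.1-fold, Mmp3 3.18-fold rather than 11.2-fold, C4b 4.83-fold rather than 8.01-fold, and Cxcl10 and Cxcl13 were under 2-fold lower.

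Immediate early genes, which rise when tissue is digested, were lower as a group, with a median log2 ratio of -0.92 over 18 genes, 6 of them 2-fold lower and 0 higher. Btg2 was at 296 CPM in progenitors and 853 CPM in other fibroblasts, Fosb at 724 and 1843 CPM, and Fos, within 2-fold, at 3736 and 6679 CPM. The part of the digestion in the lower Il6 or Cebpb was not tested. Nor was the part of the inflammatory fibroblasts, which the rule left among the other fibroblasts, in the lower early genes. Among 42 transcription factors, Creb5 was higher (276 and 133 CPM) and 4 were lower: Nr4a3 (14.3 and 67.0 CPM), Nr4a1 (256 and 583 CPM), Meox1 (10.3 and 27.2 CPM) and Cebpb. In cells of 20000 to 80000 reads Nr4a1, Junb, Zfp36, Hspa1a, Adamts1, Cxcl9, Fst, Ltbp2, Fgf1, Fgf2, Sema3d and Sfrp2 were among the genes that kept their direction but not the 2-fold difference.

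Hyaluronan genes (4 compared) were all within 2-fold, and of 13 retinoid and steroid genes 1, the retinal dehydrogenase Aldh1a2, was lower (26.8 CPM in progenitors, 68.4 CPM in other fibroblasts). Of 27 surface antigens 2 were higher, Cd248 and Thy1, and 4 were lower, Vcam1, Icam1, F3 and the ectonucleotidase Nt5e (9.06 and 20.1 CPM). The cycle genes Mki67 (30.7 and 8.28 CPM), Top2a (28.7 and 4.22 CPM) and Stmn1 (37.5 and 13.4 CPM) were higher in sum, but were on in 2.64%, 2.26% and 3.58% of progenitors. With gaps filled all 3 were lower in progenitors, so no direction is given for cycling.

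Outside the lists, the genes with the highest ratios included an oxidase with its partner. Duox1, which makes hydrogen peroxide at membranes, was at 52.0 CPM in progenitors and 8.73 CPM in other fibroblasts, and its maturation factor Duoxa1, a neighbour on chromosome 2, at 82.8 and 17.6 CPM. Ccn3, a matricellular protein, ranged from 149 to 381 CPM (median 324) in progenitors and from 37.3 to 134 CPM (median 101) in other fibroblasts. Pcsk6, a proprotein convertase that activates TGF-beta family precursors, was at 557 and 171 CPM. Cmah, the sialic acid hydroxylase (293 CPM in progenitors, 78.8 CPM in other fibroblasts), and Edn1, the vasoconstrictor endothelin 1 (64.8 and 18.7 CPM), were also among them. A pair of lipid hydrolases of the endocannabinoid pathway, Mgll (157 and 53.9 CPM) and Daglb (139 and 48.3 CPM), was higher in all 9 populations.

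The remaining genes of the 15 with the highest ratios were Aif1l (143 CPM in progenitors, 37.8 CPM in other fibroblasts), Gas7 (787 and 250.3 CPM), the small GTPase Rras2 (259 and 78.3 CPM), Galnt16 (198 and 70.1 CPM), Islr2, Nhsl1 and 1700019D03Rik. Each was higher in all 9 populations, as the choice of named genes asked. At the low end stood Trf, the iron carrier transferrin (71.5 CPM in progenitors, 589.6 CPM in other fibroblasts), Gpx3, a secreted glutathione peroxidase (521 and 2137 CPM), Apod (55.4 and 357 CPM) and the metalloreductase Steap4 (61.8 and 353 CPM). Tmem176a, Tmem176b, Nmb, Serpina3n, Spon1 and Mdk, a heparin-binding growth factor (6.42 and 57.7 CPM), completed the 10.

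Levels of the genes given here changed with the number of rule genes on, which is the count that picked the cells. Among fibroblasts that were not inflammatory, ordered from 0 to 6 progenitor genes on, Fbn1 stood at 767, 1141, 1853, 2293, 4239, 5965 and 7572 CPM, higher at each step. Apoe stood at 1821, 1171, 574, 348, 104, 13.5 and 16.9 CPM over the same steps, lower at each step up to 5 genes on. Mgp was between 3122 and 4223 CPM at 0 to 3 genes on, and stood at 779, 188 and 75.2 CPM at 4, 5 and 6. Fmo2, a flavin monooxygenase of the regulator list, was highest at 3 genes on (556 CPM, against 220.4 CPM at 0 and 35.6 CPM at 6). The median depth went along with the order, with 27014 reads at 0, 56007 at 3 and 83265 at 6 genes on, and its part in these steps was not tested.

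**Figure D4:**
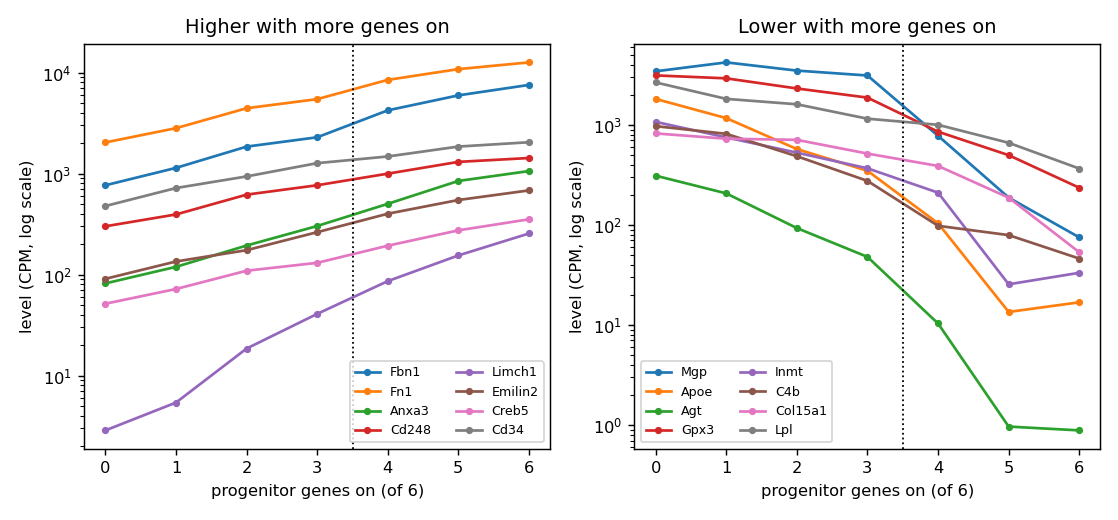
Summed level (CPM, log scale) of 16 genes in fibroblasts that were not inflammatory, by the number of the 6 progenitor genes on; the dotted line separates cells with up to 3 on from the progenitors. In the left panel all 8 genes are higher at 6 than at 0 genes on, Fbn1 for example at 7572 and 767 CPM, and in the right panel all 8 are lower, Mgp for example at 75.2 and 3438 CPM. Genes were placed in the panels by their direction, so this order was fixed by the choice of genes.

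Against the 780 inflammatory fibroblasts (at least 2 of Ptx3, Has1 and Tnfaip6 at 500 CPM), the genes that differed were mostly lower in progenitors, among them cytokine and early response genes. Of these cells 390 of 780 (50%, interval 46.4 to 53.6%) also had 4 or more progenitor genes on, against 531 of 2273 fibroblasts that were not inflammatory (23.4%, 21.6 to 25.2%). The inflammatory share was 12.5% of fibroblasts with 0 progenitor genes on, 30% with 3, 45.9% with 5 and 43.1% with 6. The condition on inflammatory genes thus removed 390 of 921 cells (42.3%) that otherwise met the rule. It did not leave progenitors free of these genes: 210 of the 531 had 1 of them at 500 CPM. At 100 CPM, 163 progenitors had 2 of them on, 23 had 3 and 139 had 0.

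Of 6883 genes compared, 0.944% were 2-fold higher and 2.41% were 2-fold lower in progenitors than in inflammatory fibroblasts, with a median log2 ratio of 0.16. Of 23 interstitial progenitor genes, 1 was higher, Wnt2 (41.8 CPM in progenitors, 14 CPM in inflammatory fibroblasts), and 0 were lower, and of 17 preadipocyte genes 5 were lower and 1 higher. Of 29 cytokine genes, 8 were lower and 0 higher. Il6 was at 78.3 CPM in progenitors and 614 CPM in inflammatory fibroblasts, Cxcl10, an interferon-induced chemokine, at 52.3 and 253 CPM, and Ptgs2, the inducible cyclooxygenase, at 91.8 and 283 CPM. Of 18 early response genes, 10 were lower, among them Atf3 (778 and 2486 CPM) and Socs3 (574 and 1476 CPM). Ptx3, Has1 and Tnfaip6, measured in the same cells, split these groups. All counts of this comparison thus describe the groups and support nothing beyond that.

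Of 20 collagen genes in that comparison, 17 were within 2-fold, 0 were lower and 3 were higher in progenitors: Col8a1 (286 CPM in progenitors, 77.3 CPM in inflammatory fibroblasts), Col5a3 (681 and 313 CPM) and Col12a1 (60.9 and 23.1 CPM). Col3a1 was within 2-fold, at 10535 CPM in progenitors and 5859 CPM in inflammatory fibroblasts, and the elastic-fibre gene Mfap4 was at 124 and 32.2 CPM. In the 390 inflammatory cells with 4 or more progenitor genes on, Col3a1 was at 4896 CPM, Mfap4 at 18.5 CPM and Il6 at 431 CPM. Agt was at 3.97 CPM in progenitors and 2.31 CPM in those 390 cells, and Mgp at 339 and 219 CPM, so both later-stage genes were low in both.

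Against 608 Fmo2 Gdf10 Clec11a fibroblasts (under 4 progenitor genes on, not inflammatory, at least 2 of F3, Fmo2, Gdf10 and Clec11a on), 3.53% of 7092 genes were 2-fold higher and 4.20% were 2-fold lower in progenitors, with a median log2 ratio of 0.07. Of 23 interstitial progenitor genes 18 were higher and 0 lower, and of 17 preadipocyte genes 10 were lower and 0 higher. Both groups were picked by genes measured in the same cells, so all counts of this comparison describe the groups only. F3, Fmo2, Gdf10 and Clec11a, which picked the reference, were not left out of the genes compared. Bmp7 was at 50.4 CPM in progenitors and 1.94 CPM in these fibroblasts, Wnt10b at 36.2 and 2.34 CPM, and Limch1 at 168 and 11.4 CPM. Of 30 cytokine genes, 9 were higher in progenitors, among them Ccl2 (642 and 190.1 CPM), Cxcl10 (52.3 and 19.9 CPM) and Ackr2 (77.2 and 13.7 CPM), and 8 were lower. The BMP antagonist Grem1 was at 0.529 CPM in progenitors and 24.1 CPM in Fmo2 Gdf10 Clec11a fibroblasts, and Eln, elastin, at 276 and 734 CPM. Grem1 was on in 0% of progenitors and in only 0.397% of all other fibroblasts, of which the Fmo2 Gdf10 Clec11a fibroblasts are a part.

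Nr4a3, Agt, Apoe and Mgp were among the genes 2-fold lower in the progenitors than in each of the 3 groups they were set against, and Wnt2, Col12a1 and Pdgfc among those 2-fold higher. Pdgfc, for example, was at 36.5 CPM in progenitors, 16.7 CPM in inflammatory fibroblasts, 5.49 CPM in Fmo2 Gdf10 Clec11a fibroblasts and 9.07 CPM in other fibroblasts. These comparisons share the progenitors, and the inflammatory and Fmo2 Gdf10 Clec11a fibroblasts are among the other fibroblasts. Inflammatory fibroblasts that met the condition on progenitor genes held less Agt and Mgp than the progenitors did. The lower Agt and Mgp of progenitors thus did not hold against that part of the inflammatory fibroblasts.

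The share of progenitors varied over the 9 hashtag populations. They made up 16.6% of fibroblasts in A0301 (interval 13.1 to 20.6%), 15.6% in A0302 (12.5 to 19.1%) and 17.2% in A0303 (13.8 to 21.0%). The share was 25.9% in A0304 (20.9 to 31.5%), 20% in A0305 (15.7 to 24.8%) and 28.4% in A0307 (23.4 to 33.9%). It was 11.8% in A0308 (8.59 to 15.6%), 9.12% in A0309 (6.10 to 13%) and 13.1% in A0310 (8.59 to 18.9%). The intervals of A0307 and A0304 stood clear of those of A0308, A0309 and A0310, while many neighbours in the order could not be told apart by counting error. With inflammatory cells included, the share with 4 or more progenitor genes on ran from 15.5% in A0309 to 40.5% in A0307.

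**Figure D5:**
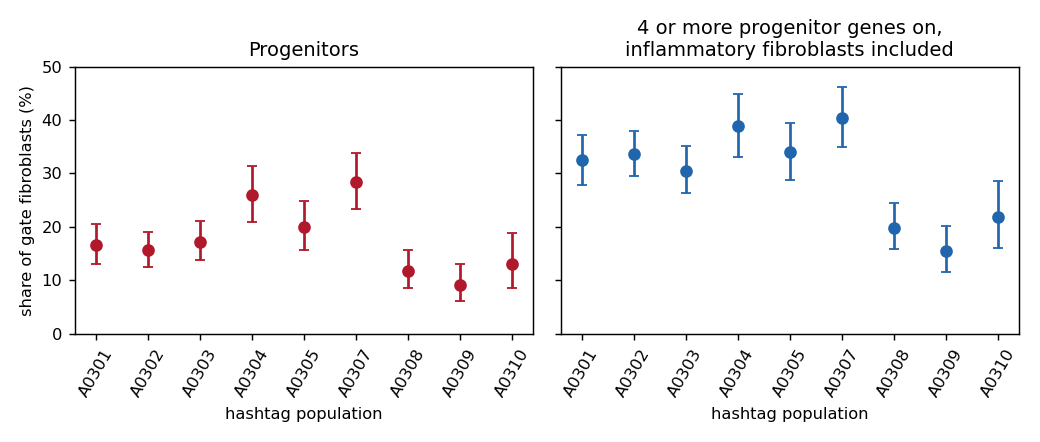
Share of fibroblasts (%) in each of the 9 hashtag populations that were progenitors (left) and that had 4 or more progenitor genes on with inflammatory fibroblasts included (right); bars are 95% exact binomial intervals for counting error only. A0307 is highest in both panels, with 28.4% and 40.5%, and A0309 lowest, with 9.12% and 15.5%.

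As a share of all kept cells, progenitors ran from 1.83% in A0309 to 8.14% in A0301, with 24 to 85 cells per population. This share moves with the number of macrophages too, which made up 47.1% of kept cells in A0309 and 5.10% in A0301. The hashtag call of a progenitor rests on few tag counts: the median was 49 counts per progenitor, 46 per other fibroblast and 1895 per macrophage, and the top tag was the called one in 87.8% of progenitors. With only the 190 progenitors whose top tag held at least 2/3 of at least 10 tag counts, the order changed: the share of fibroblasts was 28.6% in A0304, 22% in A0303, 21.8% in A0307, 18.8% in A0302, 15.3% in A0308, 15.1% in A0301, 14.6% in A0305, 12% in A0310 and 8.26% in A0309. A0307 was then no longer the highest.

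Within the progenitors Col3a1 ran from 6187 to 15284 CPM over the populations of progenitors (median 11288). In other fibroblasts Col3a1 ran from 6030.4 to 13670 CPM (median 10537).

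The genes that varied most among the progenitor populations, by the second highest over the second lowest level, were Cd36, Lgals3, Ccl2, Timp1, Ccl9, Mrgprg, Igf1, Cd74, Sult1e1 and H2-Aa. Ccl2, the monocyte attractant, was above 750 CPM in A0301, A0302, A0305 and A0307 (1054, 878, 1084 and 758 CPM) and lowest in A0310 (144 CPM). Sult1e1, the estrogen sulfotransferase, was highest in A0303 (861 CPM) and A0301 (799 CPM) and lowest in A0307 (207 CPM). Mrgprg, a G protein-coupled receptor, was at 6.52 CPM in A0301 and 317 CPM in A0304, and was on in 72 progenitors.

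Part of that variation moved with macrophage RNA. The scavenger receptor Cd36, the lectin Lgals3, the chemokine Ccl9 and the MHC class II genes Cd74 and H2-Aa are abundant in macrophages, and the summed macrophage markers of progenitors were highest in A0309 (1057 CPM) and A0305 (724 CPM). Without the 19 progenitors that had at least 2 of 7 macrophage markers on, a choice made after the values were seen, the ratio of the second highest to the second lowest population was 1.34 for Cd74 (3.25 with all progenitors), 1.29 for Ccl9 (3.80) and 1.49 for H2-Aa (3.18). For Lgals3 it was 2.74 (6.31 with all progenitors), and Cd36 still ran from 0 to 205 CPM, highest in A0308. Without them it was 6.00 for Ccl2 (5.69 with all progenitors), 3.15 for Sult1e1 (3.19) and 3.16 for Igf1 (3.37).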

How the data were processed

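The authors deposited 2 tables of whole-number counts, one of reads by gene for each cell and one by hashtag for each cell barcode. The submitters' processing notes name cutadapt 2.10, Bowtie2 2.4.2, R 3.6.3 and GRCm38; how they called cells and hashtags and treated doublets is not stated there. No collapse to molecules is recorded, so values were treated as reads. The values 1 to 4 never occur for 389 of the 18090 genes detected in more than 100 cells, so a 0 there can hide a low count; gaps were filled, as an alternative, by setting every 0 to the lowest value of that gene minus 1. Of 12040 cell columns, 11750 carry 1 hashtag call and were used, and 290 were not. All 11750 barcodes are in the hashtag table. Cells with over 25% mitochondrial reads (1229) were left out; kept cells had 5169 to 736281 reads.

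Reads were summed per group and scaled to CPM. A gene was compared at 20 CPM or more in 1 of both groups and counted at a 2-fold ratio of CPM plus 1; printed ratios have no pseudocount. Genes of the rule were not counted. Populations were compared where both groups had at least 20 cells. Poisson and binomial intervals (95%, exact) cover counting error only. With 1 pooled library no test was possible. The code of the calls was checked on simulated counts with known ratios. These held no choice of cells by their genes and no missing low counts, so the check does not cover those limits. Of the gene symbols, 28350 (96.4%) matched GENCODE M21, which gave positions; upstream sequences came from RefSeq, in which 5 of the 6 rule genes matched.

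The members and the 33 gene lists (582 genes, 578 in the table) were chosen with earlier results of these data known. Genes named from a list are those past 2-fold and members central to it; outside the lists, the 15 highest and 10 lowest ratios (CPM plus 10, at least 50 CPM, same direction in every population), and the 10 genes of at least 100 CPM that varied most over populations. Some genes of the lists are not reported here. Alternatives are given in the closing section. Python 3.11.15, numpy 2.4.6, scipy 1.17.1, pandas 2.3.3, scanpy 1.11.5 (Scrublet, expected rate 0.05) and matplotlib 3.10.9 were used.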

Additional observations from a re-analysis of the deposited data

Results flagged for a closer look

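Of 17 measures checked over the 9 hashtag populations of progenitors (the share, the 6 rule genes and the 10 most variable genes), 4 had 1 population far from the rest by Dixon's criterion, the gap to the next value over the whole range. Chance flags about 1 in 20 sets of values, a rate that does not hold here for the 10 genes picked for their spread or the 6 that picked the cells.

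Cd36 was at 477 CPM in A0305 and at most 199.9 CPM in the other populations, with a median of 78.5 CPM. A single cell held 42.8% of all Cd36 reads of the progenitors, and without the 19 progenitors with 2 or more macrophage markers on, A0305 was at 25.8 CPM. Lgals3 was at 951 CPM in A0305 and at most 345 CPM elsewhere, and at 60.3 CPM in A0305 without those cells. Cd74 was at 862 CPM in A0309 and at most 356 CPM elsewhere, and at 154 CPM in A0309 without them. H2-Aa was at 497 CPM in A0309 and at most 182 CPM elsewhere, and at 78.4 CPM in A0309 without them. Of the 19 cells, 4 each were in A0305, A0307 and A0309, 3 in A0308, 1 each in A0301, A0302, A0303 and A0304, and 0 in A0310.

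The hashtag table also counts 6 hashtags that no cell was called for. Progenitors held 197 such counts of 238870 tag counts (0.0825%), against 0.0612% in other fibroblasts and 0.0699% in macrophages.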

How the results depend on the processing

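No paired analysis was possible because the series holds 1 pooled sample, so no test over paired samples could be run; the median of the ratios within each of the 9 hashtag populations gave 122 genes higher and 206 lower. The share of fibroblasts that were progenitors was 14.4% with genes on at 200 CPM, 25% with at least 3 and 11.5% with at least 5 of 6 genes on, 18.8% at 10% mitochondrial reads or less, and 15.3% in cells of 20000 to 80000 reads, and ran from 16.2 to 18.3% with each hashtag population left out in turn. The number of progenitors was 350 with at least 5 genes on and 288 in cells of 20000 to 80000 reads, and 446 to 507 with a population left out. Of 140 genes higher and 206 lower, the counts were 92 higher with at least 3 genes on, 237 higher with inflammatory fibroblasts left out of the other fibroblasts, and 312 higher and 647 lower with no CPM minimum; with a population left out they ran from 126 to 148 higher and from 196 to 224 lower. Of 36 list genes higher and 73 lower, the counts were 56 higher without inflammatory fibroblasts, 42 lower with at least 3 genes on and 112 lower with no CPM minimum (34 to 37 higher and 70 to 78 lower with a population left out). Shared with the main calls were 123 of the 140 higher and 182 of the 206 lower at 5000 reads per cell, 105 and 159 in cells of 20000 to 80000 reads, and 126 and 189 with gaps filled. Of 134 named genes past 2-fold, 7 log2 ratios turned round: Mki67 -0.20, Stmn1 -0.23 and Top2a -0.18 with gaps filled, Mki67 -1.13 and Stmn1 -0.56 at 20000 to 80000 reads, Cxcl10 0.25 without inflammatory fibroblasts, and Rgs5 0.34 with at least 3 genes on. With gaps filled, 117 of the 134 stayed past 2-fold; Cd248, Aspn, Uchl1, Igfbp5, Sfrp2 and Fgf1 were among those that did not. Leaving out fibroblasts with 2 or more macrophage markers on, an alternative chosen after seeing the data, gave 141 genes higher and 220 lower and kept all 134. The cause of these changes was not tested, save that fewer conditions or cells enter by construction.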

Other observations

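Single genes set against the Fmo2 Gdf10 Clec11a fibroblasts are given here, chosen after their values were seen and standing for no group. Ret, the receptor of the GDNF family, was at 47.5 CPM in progenitors and 3.54 CPM in Fmo2 Gdf10 Clec11a fibroblasts, and Nefm, a neurofilament subunit, at 22.6 and 0.586 CPM. Stmn4, a neuronal stathmin, was at 75.5 CPM in progenitors and 7.27 CPM in those fibroblasts, and the skin genes Dmkn and Krtdap were at 33.3 and 23.5 CPM in progenitors and 3.17 and 0.559 CPM in those fibroblasts.

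Metallothioneins, which bind zinc and copper, were lower in progenitors than in inflammatory fibroblasts, with 995 and 3830.4 CPM of Mt1 and 947 and 3811 CPM of Mt2. The acute phase gene Saa3 was listed at 0 in progenitors and stood at 31.4 CPM in inflammatory fibroblasts; its smallest count above 0 is 18 reads.

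The hashtag populations have no diet in the labels, and their progenitors are given one by one for 1 abundant matrix gene. In progenitors Col3a1 was at 7575, 6847 and 6187 CPM in A0301, A0302 and A0303, at 15284, 12913 and 11421 CPM in A0304, A0305 and A0307, and at 13093, 9257 and 11288 CPM in A0308, A0309 and A0310. In the same populations macrophages made up 5.10, 4.15 and 5.76% of kept cells in A0301, A0302 and A0303, 27.0, 29.8 and 32.5% in A0304, A0305 and A0307, and 39.7, 47.1 and 37.8% in A0308, A0309 and A0310; the part of this in the Col3a1 levels was not tested.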
